A study of Rattus norvegicus with 24 samples.

Results

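Astrocytes keep the fluid around neurons in balance, and 10 genes that carry out this work were followed in RNA from laser-dissected spinal neurons of rats with and without a spinal transection. The genes were Kcnj10, Aqp4, Gja1, Gjb6, Car14, Aldoc, Glul, S100b, Sox9 and Aldh1l1, and a gene was measured where the array's annotation gave its symbol to a probe. Of the 10 genes, 7 had a probe, 1 each, among the 27342 probes of the array. No probe carried the symbol Glul, Sox9 or Aldh1l1, so those genes are named only. All 7 measured genes passed the filter on low values, which kept 23240 probes.

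The cells were thoracic propriospinal (TPS) neurons, interneurons of the thoracic cord with axons that run down to the lumbar enlargement. They had taken up the tracer Fluoro-Gold from injections into the enlargement, and were cut out individually by laser from the intermediate gray matter of the mid-thoracic cord. The animals were female Long Evans rats aged 77 ± 10 days, with 1 array for each of 24 animals. Transected animals received the tracer and then a complete low thoracic transection, which severs the labelled axons below the sampled cord, and were sampled after 3 days or 1 week, with n = 4 each, or after 2 weeks or 1 month, with n = 2 each. Control animals received the tracer with the thoracic cord left uninjured and are called here, as in the sample labels, the 4-day, 2-week and 1-month controls (n = 4 each). Their labels give the cord as not injured, while a note shared by all samples mentions a sham, so it is not settled whether controls had sham surgery. The study's methods time the controls from the tracer injection instead. All 24 animals thus carried the tracer and its injection. The late transected groups were small, according to the methods, because of failed quality checks, a loss in freezing and deaths. The 3-day and 1-week animals were both set against the 4-day controls, so those comparisons share their control arrays.

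Kcnj10 is an inwardly rectifying potassium channel through which glia take up the potassium that active neurons release, and Aqp4 is the water channel of the astrocyte endfoot. Gja1 and Gjb6 are the main astrocyte connexins, which join astrocytes into a network through gap junctions. Car14 is a carbonic anhydrase of the cell surface that interconverts carbon dioxide and bicarbonate and so helps to set extracellular pH. Aldoc is the aldolase of glycolysis that marks astrocytes in the brain and cord, and S100b is a calcium-binding protein made by astrocytes and some oligodendrocyte lineage cells. Of the genes with no named probe, Glul makes glutamine from glutamate, Aldh1l1 is a folate enzyme and Sox9 a transcription factor, and all of these are used as astrocyte markers.

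The promoters of the 3 genes that were lower 3 days after transection are shown, since these were the measured genes that passed the test there. RefSeq promoter sequences of the rat (GRCr8) were held for 9 of the 10 genes, in 12 windows, as some genes have several starts. The 250 bases before each start were searched on both strands for a SOX core (AACAAT), a STAT core (TTCNNNGAA), an AP-1 core (TGANTCA), the short core of the nuclear factor I family (TTGGC) and a TATA core (TATAAA). Capitals mark the matches. The lines give Kcnj10 (chr13:87334260-87334509, plus strand), Car14 (chr2:186138165-186138414, minus strand) and both starts of Gjb6 (chr15:35410139-35410388 and chr15:35408963-35409212, minus strand), each 5′ to 3′ on the strand of the gene.
Kcnj10: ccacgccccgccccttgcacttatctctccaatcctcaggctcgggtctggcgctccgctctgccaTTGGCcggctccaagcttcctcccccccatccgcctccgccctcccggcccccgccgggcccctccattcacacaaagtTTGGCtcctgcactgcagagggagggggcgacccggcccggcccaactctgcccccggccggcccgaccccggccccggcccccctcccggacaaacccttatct
Car14: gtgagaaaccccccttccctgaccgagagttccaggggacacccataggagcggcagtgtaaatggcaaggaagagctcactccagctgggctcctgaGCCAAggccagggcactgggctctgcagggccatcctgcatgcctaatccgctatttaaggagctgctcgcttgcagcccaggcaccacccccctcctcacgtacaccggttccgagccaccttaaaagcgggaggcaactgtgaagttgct
Gjb6, first start: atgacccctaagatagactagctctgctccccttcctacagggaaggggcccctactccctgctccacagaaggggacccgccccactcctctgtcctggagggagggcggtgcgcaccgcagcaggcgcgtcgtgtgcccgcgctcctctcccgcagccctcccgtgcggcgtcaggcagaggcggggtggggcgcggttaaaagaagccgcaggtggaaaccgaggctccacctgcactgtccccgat
Gjb6, second start: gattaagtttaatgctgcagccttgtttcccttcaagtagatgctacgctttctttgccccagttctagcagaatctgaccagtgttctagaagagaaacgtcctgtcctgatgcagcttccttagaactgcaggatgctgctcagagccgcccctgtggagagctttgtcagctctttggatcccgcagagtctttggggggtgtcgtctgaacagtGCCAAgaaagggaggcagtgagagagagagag
Every capital run above is a TTGGC core or its reverse complement, beginning 184 and 105 bases before the start of Kcnj10, 152 before that of Car14 and 32 before the second start of Gjb6. The TTGGC core was in 5 of the 12 windows of the 10 genes and in 40.3% of 33469 rat promoters. The AP-1 core was in 1 of the 12, that of the connexin Gja1, 58 bases before its start, against 6.3% of all promoters. The SOX, STAT and TATA cores were in none of the 12, against 10.3%, 7.7% and 12.9% of all promoters. The Kcnj10 window was 72.4% G and C, the Car14 window 60.4%, and the Gjb6 windows 68.0% and 51.2%, beside a median of 51.2% over all promoters. A match of letters is a description of the sequence and says nothing of binding.

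The values are array intensities after the authors' normalization, given here as log2, so that a difference of 1 is a doubling. A gene was called changed at an adjusted p under 0.05 in limma over all 23240 probes. Array medians lay between 73.6 and 81.3, and no array value of the 7 genes was below an intensity of 338, far from the lowest value on the arrays of 17. Neuronal genes, checked for the labelled cell type, had mean log2 in the 4-day controls of 12.26 for the synaptic protein Snap25, 12.29 for the surface protein Thy1 and 12.06 for the neurofilament Nefm. Gfap, the filament that defines astrocytes, was between 8.93 and 11.27 on the same arrays, though background had no measure of its own. Each array holds RNA pooled from many laser-cut neurons, so the cell type that made a given RNA cannot be told. How much glial tissue came along with the neurons and how much RNA each cell made cannot be told apart either. Within the 4-day controls, 2 arrays stood apart for these genes. Control 3 was the lowest of its group in 6 of the 7 genes and control 4 the highest in 7 of 7, and their array quality weights were 0.33 and 0.48. Most results at 3 days that change with either of them are given with and without it.

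At 3 days after transection the potassium channel Kcnj10, the carbonic anhydrase Car14 and the connexin Gjb6 were lower than in the 4-day controls. Kcnj10 and Car14 were near 0.5 of the control level and Gjb6 was near 0.7 of it, while Aqp4, Gja1, Aldoc and S100b did not pass the test. Thus 3 of 7 genes were lower and 0 were higher, where 2.89% of all probes were called and 0.886% were called lower. The genes were chosen with earlier results of these data known, and Kcnj10 and Car14 are among the study's most decreased genes. The count therefore describes these genes and is no test of them as a set. The differences of the 7 genes ran from -1.07 to -0.10 with a median of -0.29, and all 7 were below 0, as were 52.4% of all probes.

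**Figure D1:**
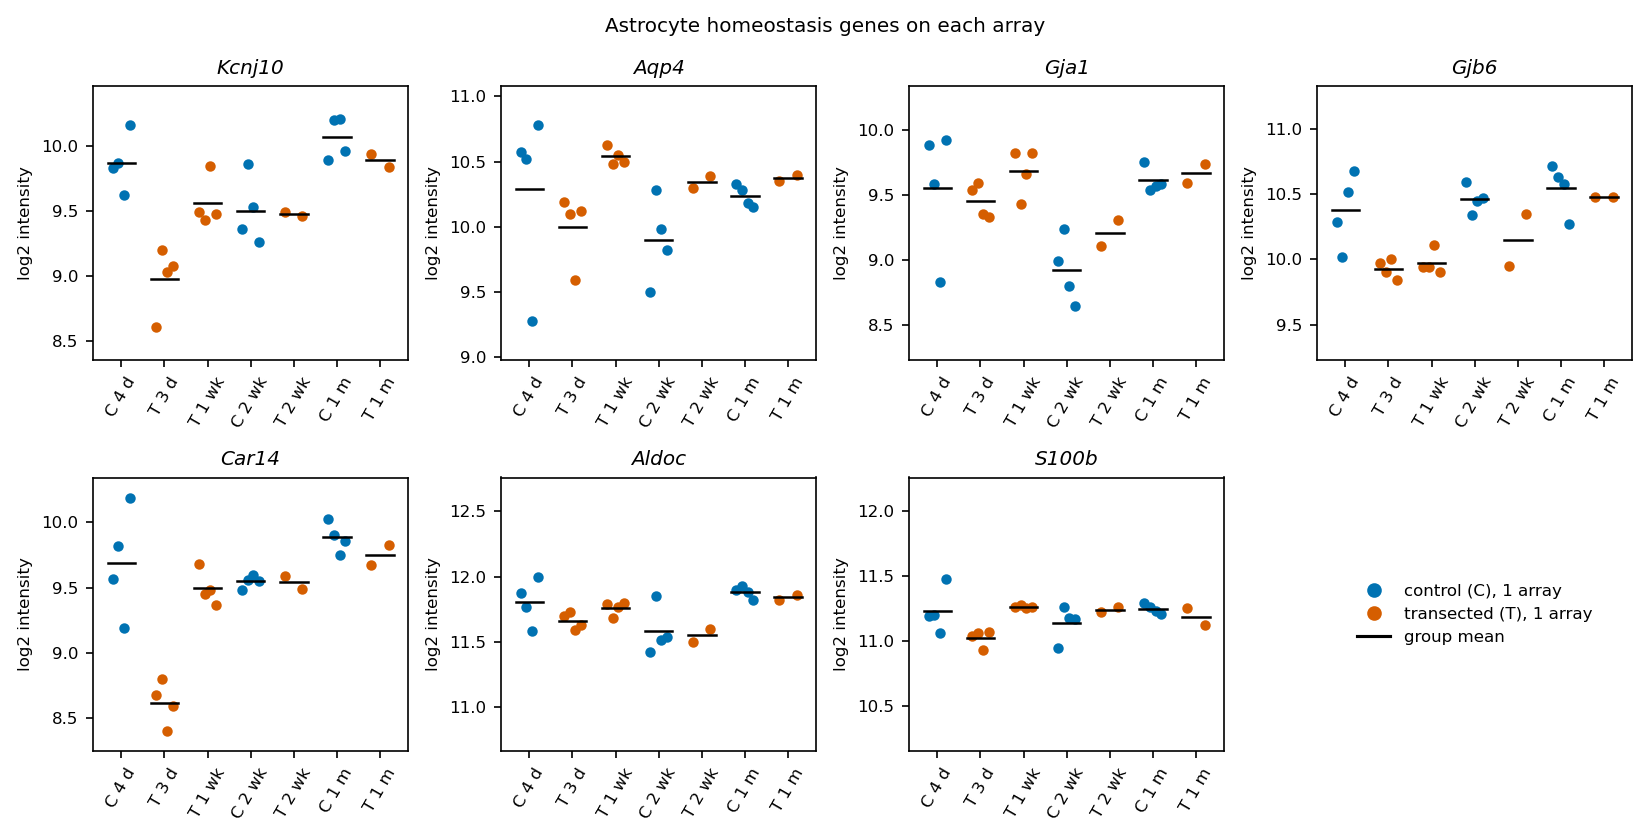
Log2 values of the 7 measured genes on each of the 24 arrays, in groups of controls (C, blue) and transected animals (T, orange), with the group mean as a bar and the same span of log2 in every panel. The 3-day arrays lie below all 4-day controls for Kcnj10, Gjb6 and Car14, and 4-day control 3 stands far below the other controls for Aqp4, at 9.28.

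Kcnj10 had log2 values of 9.83, 9.87, 9.62 and 10.16 on the 4-day control arrays and 8.61, 9.20, 9.03 and 9.08 on the 3-day arrays. The groups did not overlap, and even the highest 3-day array was below the lowest control. The difference was -0.89 (SE 0.14, 95% interval -1.18 to -0.59, adjusted p = 0.00103), or 0.540 times the control level. Car14 had values of 9.57, 9.82, 9.19 and 10.19 in the controls and 8.68, 8.80, 8.40 and 8.59 at 3 days. Here too every 3-day array was below every control, and the spread among the controls was larger than among the transected animals. The Car14 difference was -1.07 (SE 0.14, 95% interval -1.36 to -0.78, adjusted p = 0.000158), or 0.476 times the control level. Kcnj10 and Car14 stand in the study's list of its most decreased genes, which was chosen on these same arrays, so the list is not independent evidence of their direction.

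The connexins differed from each other at 3 days in what passed the test. Gjb6 had log2 values of 10.29, 10.02, 10.52 and 10.68 in the controls and 9.97, 9.90, 10.00 and 9.84 at 3 days. The groups did not overlap, although the lowest control and the highest 3-day array were almost level. The Gjb6 difference was -0.45 (SE 0.12, 95% interval -0.70 to -0.20, adjusted p = 0.0446), or 0.732 times the control level. Gja1 had values of 9.88, 9.58, 8.83 and 9.92 in the controls and 9.54, 9.59, 9.35 and 9.33 at 3 days. All 3-day arrays lay within the range of the controls, which control 3 extended downward. The Gja1 difference was -0.10 (SE 0.17, 95% interval -0.46 to 0.27, adjusted p = 0.893). Its sign turned without control 4, at 0.03 (SE 0.18, adjusted p = 0.967), and without control 1, at 0.01 (SE 0.18, adjusted p = 0.988). Whether the effect on Gjb6 differed from that on Gja1 was not tested.

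The water channel Aqp4 had log2 values of 10.57, 10.52, 9.28 and 10.78 in the 4-day controls and 10.19, 10.10, 9.59 and 10.12 at 3 days. All 3-day arrays were below controls 1, 2 and 4, and all were above control 3. The difference was -0.29 (SE 0.22, 95% interval -0.75 to 0.18, adjusted p = 0.655). Without control 3, the Aqp4 difference was -0.62 (SE 0.14, adjusted p = 0.0182), so that the call of this gene depends on that array.

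Aldoc, the glycolytic enzyme, had log2 values of 11.87, 11.77 and 11.58 on controls 1 to 3, 12 on control 4 and 11.70, 11.73, 11.59 and 11.63 after transection. The groups overlapped, and the difference was -0.15 (SE 0.09, adjusted p = 0.508). S100b had 11.19, 11.20, 11.06 and 11.48 in the controls and 11.04, 11.06, 10.93 and 11.07 at 3 days. These groups overlapped by a narrow margin at control 3, with a difference of -0.20 (SE 0.08, adjusted p = 0.213). Groups that did not overlap were found for 3 of the 7 genes, Kcnj10, Gjb6 and Car14, and for 5.51% of all probes.

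The lower Kcnj10 and Car14 did not rest on a single array, as both stayed past the threshold when any 1 of the 24 arrays was left out, with differences of -0.97 to -0.77 for Kcnj10 and -1.24 to -0.91 for Car14. Gjb6 was a narrower call, which was kept in 8 of the 24 fits without 1 array, with differences of -0.57 to -0.35 and adjusted p of 0.00705 to 0.150. Without control 3, Gjb6 differed by -0.40 (adjusted p = 0.110), and without control 4 by -0.35 (adjusted p = 0.150). With 4-day controls 1 and 2 only, Kcnj10 differed by -0.87 (adjusted p = 0.0164), Car14 by -1.07 (adjusted p = 0.000273) and Gjb6 by -0.23 (adjusted p = 0.508). A fit of the 3-day and 4-day control arrays alone called none of the 7 genes, with an adjusted p of 0.0837 for Kcnj10 and 0.0900 for Car14. The methods' t-test, which the study ran at single times for a few genes, called none either after Benjamini-Hochberg adjustment, while 3 of the 7 genes and 2004 probes in all were at an unadjusted p under 0.05. How many of all probes these fits called after adjustment is not given here. The lost calls thus cannot be read as particular to the 7 genes.

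**Figure D2:**
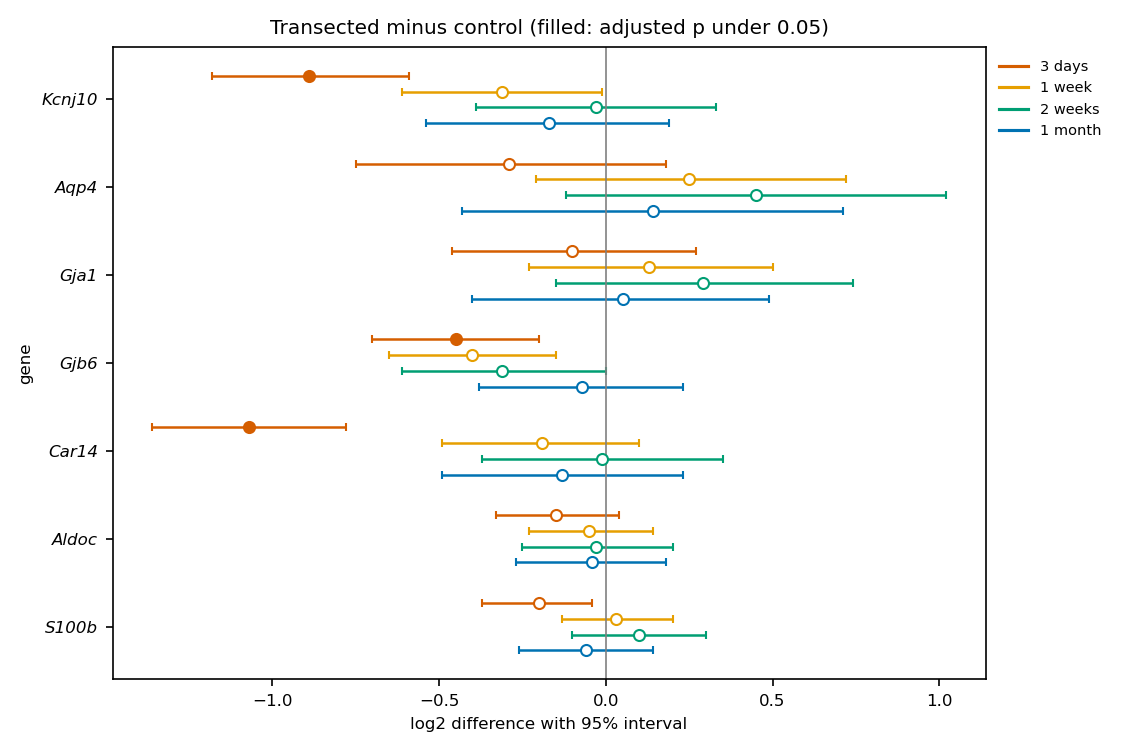
Log2 difference between transected animals and their controls for each measured gene at 4 times, with the 95% interval of the limma fit as a bar and filled points where the adjusted p was under 0.05. The only filled points are those of Kcnj10, Gjb6 and Car14 at 3 days.

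At 1 week, no measured gene passed the test against the 4-day controls, and 0% of all probes did. At an unadjusted p under 0.05 in limma there were 1031 probes, and among them Kcnj10 and Gjb6. Kcnj10 had log2 values of 9.49, 9.43, 9.85 and 9.48 at 1 week, so that 3 arrays were below all controls and the remaining array was within their range. Its difference was -0.31 (SE 0.14, adjusted p = 0.999). Gjb6 stayed low on all 4 arrays of 1 week, at 9.94, 9.94, 10.11 and 9.90, although the highest of these exceeded control 2. The Gjb6 difference was -0.40 (SE 0.12, adjusted p = 0.999), close to its value at 3 days. Car14 was back within the range of the controls at 9.68, 9.45, 9.48 and 9.37, with a difference of -0.19 (SE 0.14). Aqp4 lay between 10.48 and 10.63, with a difference of 0.25 (SE 0.22), and Gja1 between 9.43 and 9.82, with a difference of 0.13 (SE 0.17). Aldoc differed by -0.05 (SE 0.09) and S100b by 0.03 (SE 0.08), with the 4 S100b arrays between 11.25 and 11.28. None of the 7 genes had groups that did not overlap, where 1.76% of all probes had.

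The 3-day and 1-week animals can be compared directly, which removes the shared controls. By the study's methods, the 1-week animals carried the tracer for longer than the 3-day animals and the 4-day controls. Time since injury and time since the tracer thus cannot be told apart here. Kcnj10 and Car14 were lower at 3 days than at 1 week, with a Kcnj10 difference of -0.58 (SE 0.14, adjusted p = 0.0306) and a Car14 difference of -0.88 (SE 0.14, adjusted p = 0.00123). No measured gene was higher, while 2.47% of all probes were called and 0.542% of all probes were lower at 3 days. Gjb6 had almost the same level at both times, with a difference of -0.05 (SE 0.12, 95% interval -0.30 to 0.20). Aqp4 was lower at 3 days on every array, with a difference of -0.54 (SE 0.22, adjusted p = 0.291). S100b likewise did not overlap between the times and differed by -0.23 (SE 0.08, adjusted p = 0.158). In all, 4 of the 7 genes, Kcnj10, Aqp4, Car14 and S100b, had groups that did not overlap, as had 6.68% of all probes. Gja1 differed by -0.23 (SE 0.17) and Aldoc by -0.10 (SE 0.09). The Kcnj10 call was lost on leaving out 1-week arrays 1, 4 or 5 or 3-day arrays 1 or 4, with differences of -0.61 to -0.46 and adjusted p of 0.0503 to 0.130. Without 4-day control 3, which bears on this comparison only through the shared spread, Aqp4 was past the test, with the same difference of -0.54 (adjusted p = 0.0280), as it was with 4-day controls 1 and 2 only (adjusted p = 0.0286).

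At 2 weeks, with 2 transected arrays, no measured gene passed the test against the 2-week controls and 0% of all probes did, with 1229 probes at an unadjusted p under 0.05 in limma and none of the 7 genes among them. Kcnj10 was at 9.49 and 9.46 against 9.36, 9.86, 9.53 and 9.26 in the controls, a difference of -0.03 (SE 0.17, 95% interval -0.39 to 0.33). Car14 was at 9.59 and 9.49 against 9.48, 9.56, 9.60 and 9.55, a difference of -0.01 (SE 0.17, 95% interval -0.37 to 0.35). The means of both genes lay near those of their own controls, though the intervals still allow changes in either direction. Gjb6 was at 9.95 and 10.35 against 10.59, 10.34, 10.45 and 10.47, a difference of -0.31 (SE 0.15, adjusted p = 0.944), and only its first array stood below all the controls. Aqp4 was at 10.30 and 10.39 against 9.50, 10.28, 9.98 and 9.82, a difference of 0.45 (SE 0.27, adjusted p = 0.959). Aqp4 alone had groups that did not overlap, where 17.7% of all probes had with so few arrays. Gja1 differed by 0.29 (SE 0.21), S100b by 0.10 (SE 0.10) and Aldoc by -0.03 (SE 0.11).

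At 1 month, again with 2 transected arrays, 0 of the 7 genes and 0% of all probes passed, with 799 probes at an unadjusted p under 0.05 in limma and none of the 7 genes among them. The differences from the 1-month controls ran from -0.17 (SE 0.17) for Kcnj10 to 0.14 (SE 0.27) for Aqp4. Kcnj10 was at 9.94 and 9.84 against 9.89, 10.20, 10.21 and 9.96, and Car14 at 9.67 and 9.83 against 10.03, 9.90, 9.75 and 9.86, with a difference of -0.13 (SE 0.17). Gjb6 was at 10.48 on both arrays, within the control range of 10.27 to 10.72. Aqp4 was at 10.35 and 10.40, above all controls (10.15 to 10.33), as 13.5% of all probes were apart in either direction. Gja1, Aldoc and S100b differed by 0.05 (SE 0.21), -0.04 (SE 0.11) and -0.06 (SE 0.10).

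Averaged over the 4 times, Kcnj10 and Car14 both differed by -0.35 (SE 0.09, adjusted p = 0.0979 and 0.0898) and Gjb6 by -0.31 (SE 0.07, adjusted p = 0.0815). No measured gene passed, where 0.404% of all probes did. The difference between the effects at 3 days and at 2 weeks was -1.06 (SE 0.22, adjusted p = 0.0945) for Car14 and -0.86 (SE 0.23, adjusted p = 0.277) for Kcnj10. Between 3 days and 1 month it was -0.94 (SE 0.22, adjusted p = 0.141) for Car14 and -0.71 (SE 0.23, adjusted p = 0.378) for Kcnj10. Each of these differences of effects called 0.0904% of all probes and none of the 7 genes. Without 4-day control 3, Car14 passed in all of these comparisons, at -0.43 (adjusted p = 0.00761) for the average, -1.23 (adjusted p = 0.00810) against 2 weeks and -1.11 (adjusted p = 0.0209) against 1 month. The average for Gjb6 passed without 1-month control 4 at -0.33 (adjusted p = 0.0397), without 2-week transected array 4 at -0.36 (adjusted p = 0.0408) and without 4-day control 2 at -0.37 (adjusted p = 0.0106).

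The control groups differed among themselves for some of the genes. In the 1-month controls Kcnj10, Gja1 and Aldoc were higher than in the 2-week controls, and all 7 genes were above 0, with differences of 0.09 to 0.69 and a median of 0.34. Thus 3 of 7 genes were called, all higher, in a comparison that called 10.2% of all probes and placed 6.18% of all probes higher. Gja1 had 8.99, 9.24, 8.80 and 8.65 in the 2-week controls and 9.75, 9.54, 9.57 and 9.58 in the 1-month controls, a difference of 0.69 (SE 0.17, adjusted p = 0.0195). All 1-month arrays of Gja1 stood above all 2-week arrays. Kcnj10 differed by 0.56 (SE 0.14, adjusted p = 0.0203), also without overlap, with 9.89, 10.20, 10.21 and 9.96 at 1 month. Aldoc had 11.42, 11.85, 11.51 and 11.54 in the 2-week and 11.90, 11.93, 11.88 and 11.82 in the 1-month controls, where only the second 2-week array reached the later level. The Aldoc difference was 0.30 (SE 0.09, adjusted p = 0.0357).

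Car14 was higher in each 1-month control than in each 2-week control but did not pass the test, with 0.34 (SE 0.14, adjusted p = 0.116). It passed with array quality weights (0.33, adjusted p = 0.0291) and, at the same 0.34, with only the groups compared (adjusted p = 0.0256), the methods' t-test (0.0446), 4-day controls 1 and 2 only (0.0193) or without 4-day control 3 (0.0449). Aqp4 also differed by 0.34 (SE 0.22, adjusted p = 0.303). Gjb6 and S100b differed by 0.09 (SE 0.12) and 0.11 (SE 0.08). Groups that did not overlap were found for 3 of 7 genes, Kcnj10, Gja1 and Car14, and for 23.0% of all probes. Over 13 other settings the differences were 0.43 to 0.65 for Kcnj10, 0.54 to 0.78 for Gja1 and 0.27 to 0.39 for Aldoc, while the calls depended on the scaling and on few arrays. Another quantile normalization and cyclic loess called none of the 7 genes, and leaving out 2-week control 3 or 2-week control 4 left 0 of them called. Leaving out 1-month control 2, 1-month control 3 or 2-week control 1 left 1 called.

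**Figure D3:**
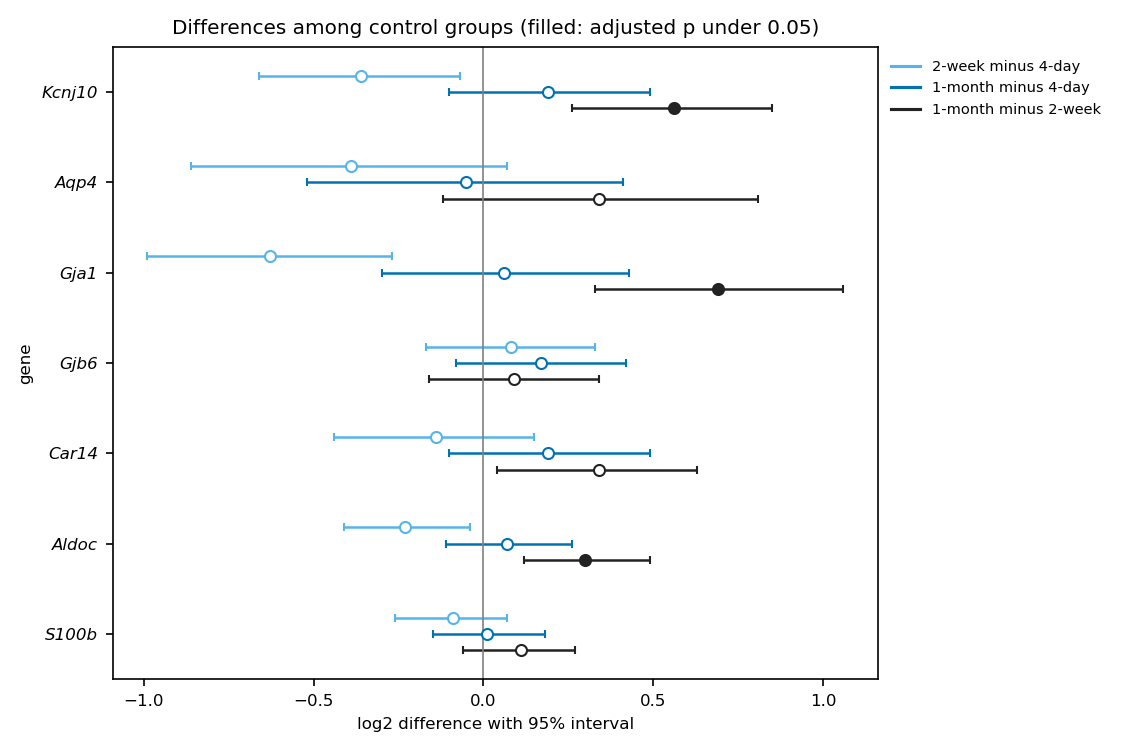
Log2 differences among the 3 control groups for each measured gene, with the 95% interval of the limma fit as a bar and filled points where the adjusted p was under 0.05. Filled points are those of Kcnj10, Gja1 and Aldoc for 1-month minus 2-week controls, and the Gja1 difference between 2-week and 4-day controls is -0.63.

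The 2-week controls were below the 4-day controls for 6 of the 7 genes, with Gja1 at -0.63 (SE 0.17, adjusted p = 0.136) and Gjb6 the exception at 0.08 (SE 0.12). No gene of the 7 and 0% of all probes passed, with 3315 probes at an unadjusted p under 0.05 in limma, 3 of the 7 genes among them. No measured gene had groups that did not overlap (5.16% of all probes). Without 4-day control 3, Gja1 differed by -0.87 (adjusted p = 0.00147), Aqp4 by -0.73 (adjusted p = 0.00745) and Aldoc by -0.30 (adjusted p = 0.0446), in a fit that then called 1288 probes. The 1-month controls differed from the 4-day controls by -0.05 to 0.19, with none of the 7 genes and 0.00430% of all probes called, and with 5.58% of all probes but none of the 7 genes apart.

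Over all 7 groups, the mean log2 of Kcnj10 ran from 8.98 at 3 days to 10.06 in the 1-month controls, and that of Car14 from 8.62 to 9.88 between the same groups. In both genes the 3-day group was the lowest and its arrays did not overlap the next group up, while all other neighbours in the order overlapped. For Kcnj10 the next group was the 2-week transected animals at 9.48, with only 2 arrays. For Car14 it was the 1-week animals at 9.50, and 6.68% of all probes were apart between 3 days and 1 week. Gjb6 was lowest at 3 days and 1 week, at 9.93 and 9.97, and highest in the 1-month controls at 10.55, with overlap between all neighbours. Aqp4 and Gja1 were lowest in the 2-week controls, at 9.89 and 8.92, and highest at 1 week, at 10.54 and 9.68. Each of them also had neighbours that did not overlap. These were the 1-month transected and 1-week groups for Aqp4, and the 2-week transected and 3-day groups for Gja1. Each of these pairs, like that of Kcnj10, includes a group of 2 arrays, and its share of all probes apart was not computed. Where such groups were set against their controls, 17.7% of all probes were apart at 2 weeks and 13.5% at 1 month. Aldoc ran from 11.55 at 2 weeks to 11.88 in the 1-month controls, and S100b from 11.03 at 3 days to 11.26 at 1 week. Within groups, the SD was 0.10 for S100b, 0.12 for Aldoc, 0.17 for Gjb6, 0.21 for Kcnj10 and Car14, 0.26 for Gja1 and 0.34 for Aqp4, beside a median of 0.17 over all probes.

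Other genes of astrocyte homeostasis were followed in a list of 46, of which 38 were named by a probe and 37 tested. At 3 days 5 of the 37 were lower and 0 higher, where 0.886% of all probes were lower and 2.00% higher. The list median was -0.15, with 27 genes below 0, as were 52.4% of all probes. The lower genes were the GABA transporter Slc6a11, the retinoid-binding protein Rlbp1, the matrix proteoglycan Bcan, the neutral amino acid transporter Slc7a10 and the mitochondrial glutamate carrier Slc25a18. Slc6a11 was at 9.95, 10.25, 9.91 and 10.57 in the 4-day controls and 9.01, 8.75, 8.98 and 8.58 at 3 days, without overlap, a difference of -1.34 (SE 0.14, adjusted p = 2.73e-05). Rlbp1 differed by -1.10 (SE 0.22, adjusted p = 0.00750), Bcan by -0.87 (SE 0.20, adjusted p = 0.0164), Slc7a10 by -0.82 (SE 0.11, adjusted p = 0.000230) and Slc25a18 by -0.60 (SE 0.13, adjusted p = 0.0169). Without control 3, 7 of the 37 were lower and the median was -0.25, in a fit that called 2.94% of all probes. Without control 4, 4 were lower and the median was -0.04, where 2.04% of all probes were called. Slc25a18 was then at -0.45 (adjusted p = 0.0580). Slc6a11, Rlbp1 and Slc7a10 too are in the study's list of most decreased genes, so that list is not independent evidence of their direction either. The homeostasis genes were listed with earlier results known, so the count of lower genes is a description.

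The main glutamate transporters did not pass the test, with Slc1a2 at -0.32 (SE 0.11, adjusted p = 0.139) and Slc1a3 at 0.22 (adjusted p = 0.752). Nor did Kcnj16, a channel subunit that pairs with Kcnj10, at 0.19 (SE 0.20, adjusted p = 0.776), or Mlc1, a membrane protein of the astrocyte endfoot, at 0.02 (adjusted p = 0.990). The signs of these last values rest on control 3, without which Slc1a3 was at -0.09 (adjusted p = 0.833), Kcnj16 at -0.13 (adjusted p = 0.651) and Mlc1 at -0.28 (adjusted p = 0.467). At 1 week, 2 weeks and 1 month, 0 of the 37 genes passed, as 0% of all probes did, with medians of 0.00, 0.12 and 0.01. Between 3 days and 1 week 7 of the 37 were lower at 3 days, where 0.542% of all probes were lower. Between the 1-month and 2-week controls 12 were higher and 1, the transcription factor Hes5, was lower at -0.43 (SE 0.09, adjusted p = 0.00997). The list median was 0.36, in a comparison that placed 6.18% of all probes higher and 4.00% lower. Slc6a11 was among the higher, at 0.86 (SE 0.14, adjusted p = 0.00406), as was Slc1a2, at 0.40 (SE 0.11, adjusted p = 0.0253).

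Relatives of the 10 genes by family were tested for 39 of 44 genes at 3 days, with some of these genes also in the homeostasis and reactive lists. Of the 39, 2 were lower and 4 higher, where 0.886% of all probes were lower and 2.00% higher. Without control 3, 4 relatives were lower and 3 higher, in a fit that called 2.94% of all probes. Without control 4, 1 was lower and 4 higher, where 2.04% of all probes were called. Among the carbonic anhydrases, the cytosolic Car7 was lower at -0.70 (SE 0.14, adjusted p = 0.00873), and the membrane-bound Car4 differed by -0.81 (SE 0.24, adjusted p = 0.0671). Among the connexins none passed, and Gjb2, which astrocytes also make, differed by -0.66 (SE 0.19, adjusted p = 0.0699). None of the 7 relatives of Kcnj10 passed. The S100 family went both ways, with S100a1 lower at -0.42 (SE 0.09, adjusted p = 0.0159), while S100a4 was higher by 1.73 (SE 0.34), S100a6 by 1.34 (SE 0.31), S100a10 by 0.60 (SE 0.09) and S100a11 by 1.45 (SE 0.25), with adjusted p of 0.000960 to 0.0191. Without control 3 the S100a6 difference was 1.03 (adjusted p = 0.0575), and without control 4 that of S100a1 was -0.34 (adjusted p = 0.0588). S100a11 is in the study's list of most increased genes, which was chosen on these same arrays. S100b itself did not pass.

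**Figure D4:**
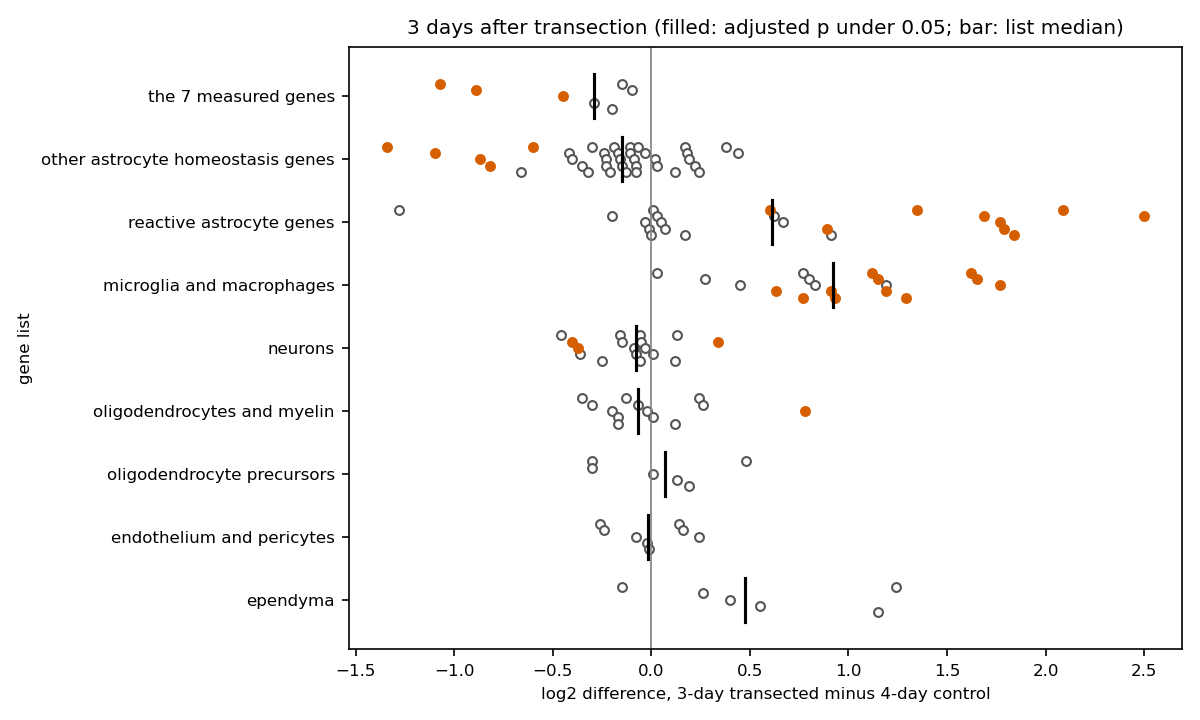
Log2 difference between 3-day transected animals and 4-day controls for each tested gene of 9 lists, with filled points where the adjusted p was under 0.05 and a bar at the median of each list. The 7 measured genes lie below 0 with a median of -0.29, and the reactive astrocyte and microglial lists have medians of 0.61 and 0.92.

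Of 22 tested genes that astrocytes raise when they become reactive, 9 were higher at 3 days, 0 lower and 13 did not pass, with a median of 0.61. Over all probes, 2.00% were higher and 0.886% lower. The largest increases were those of the small heat shock protein Hspb1 at 2.50 (SE 0.26, adjusted p = 2.73e-05), the protease inhibitor Timp1 at 2.09 (SE 0.35, adjusted p = 0.00169) and the iron-binding lipocalin Lcn2 at 1.84 (SE 0.36, adjusted p = 0.00622). Some of the 13 that did not pass lay below 0, with the chemokine Cxcl10 at -1.28 (SE 0.50, adjusted p = 0.209). Injured neurons also make Hspb1. Hspb1 and Lcn2, with Cp and Serpina3n among the called genes, stand in the study's list of its most increased genes. That list was chosen on these same arrays, so it is not independent evidence of their direction. The reactive genes were also listed with earlier results known, and their count is a description. The astrocyte filament Gfap had 11.27, 11.17, 8.93 and 10.46 in the 4-day controls and 11.48, 11.55, 10.95 and 11.50 at 3 days, a difference of 0.91 (SE 0.37, adjusted p = 0.230). Control 3 was the low array here as well, and without it the Gfap difference was 0.40 (SE 0.27, adjusted p = 0.515). Vim, a filament of reactive astrocytes and of other cells, was higher by 1.79 (SE 0.32, adjusted p = 0.00271).

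Among the markers of other cell types, the microglial and macrophage list had the most genes past the test. Of its 18 genes 11 were higher at 3 days and 0 lower, where 2.00% of all probes were higher and 0.886% lower. The list median was 0.92, and the mean log2 of its genes was 7.12 to 8.30 in the 4-day controls and 8.51 to 8.99 at 3 days. Among the most abundant of these genes, the complement gene C1qc was higher by 1.65 (SE 0.24, adjusted p = 0.000565) and C1qa by 1.12 (SE 0.25, adjusted p = 0.0142). C1qc and the integrin Itgam, also called, are in the study's list of most increased genes, so the count is not independent of that list. The lysosomal protease Ctss differed by 0.45 (SE 0.13, adjusted p = 0.0730). Without control 3 the list had 9 genes higher and a median of 0.65, with Ctss at 0.28 (adjusted p = 0.191), where 2.94% of all probes were called. Without control 4 the list had 9 genes higher and a median of 1.01, where 2.04% of all probes were called. At 1 week that list had a median of 0.42, at 2 weeks 0.72 and at 1 month 0.50, with none called. Of 17 neuronal genes 2 were lower and 1 higher at 3 days, with a median of -0.08 and mean log2 of 10.13 to 10.42 against 10.32 to 10.47 in the controls. In the fit without control 3, which called 2.94% of all probes, 1 neuronal gene was lower and 0 higher. Of the oligodendrocyte genes 1 of 13 was higher, the tight junction protein Cldn11, and 0 of 6 precursor, 0 of 8 endothelial and 0 of 6 ependymal genes passed, with a median of 0.48 for the ependymal genes. The part of these other cells in the lower Kcnj10, Car14 and Gjb6 was not tested.

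**Figure D5:**
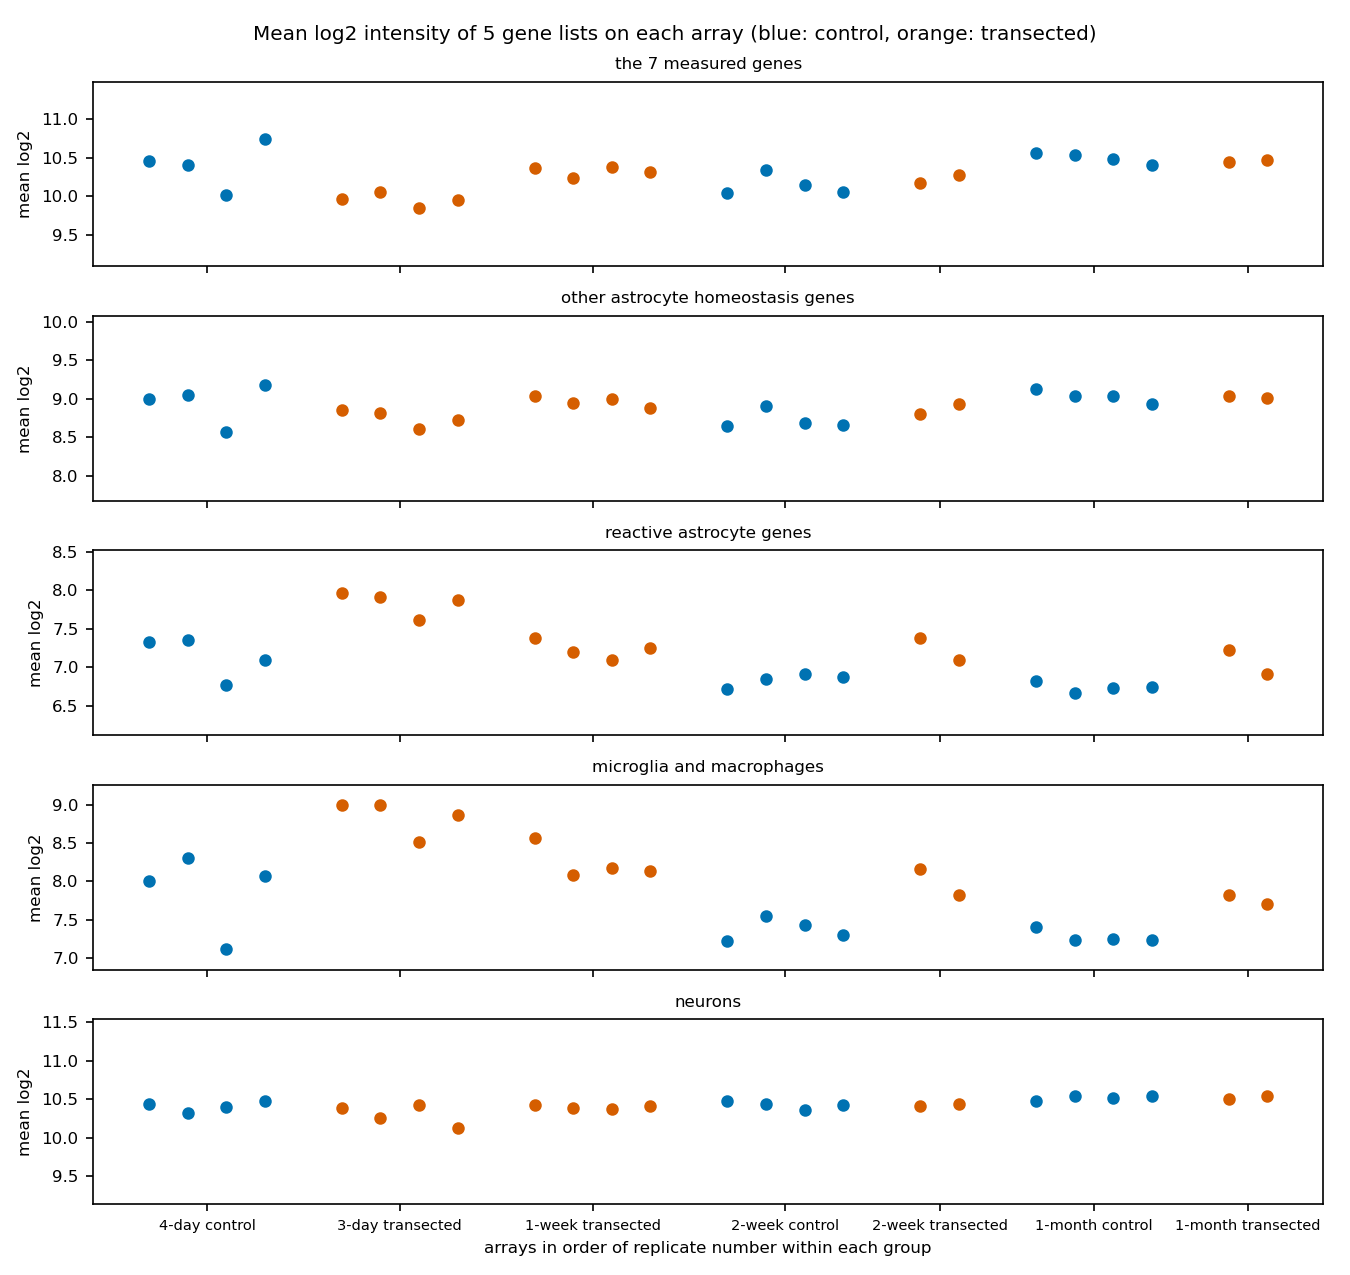
Average log2 value of 5 lists of genes for each of the 24 arrays, in order of replicate number within the 7 groups, with controls in blue, transected animals in orange and the same span of log2 in every panel. The 7 measured genes have means of 9.84 to 10.05 at 3 days and of 10.01 to 10.74 in the 4-day controls, where control 3 is the lowest of its group in each list but that of neurons.

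The mean log2 of the 7 genes was 10.46, 10.40, 10.01 and 10.74 on the 4-day control arrays and 9.96, 10.05, 9.84 and 9.95 at 3 days, so that control 3 overlapped the transected animals. Control 3 was also the lowest of its group in the other homeostasis genes, at 8.57, in the microglial genes, at 7.12, and in the reactive astrocyte genes, at 6.77. Its neuronal mean of 10.40 was within the range of its group. The fall of Kcnj10 and Car14 was larger without this array, at -0.97 (adjusted p = 0.00123) and -1.24 (adjusted p = 2.16e-05). Leaving out other arrays made it smaller, down to -0.77 for Kcnj10 and -0.91 for Car14.

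As a description, the 21 pairs of the 7 genes had a median Pearson r of 0.61 over the 24 arrays, with a range of -0.17 to 0.84 and 19 pairs positive. Deviations from the group means gave a median of 0.50. Kcnj10 and Car14 had the highest r, at 0.84 over all arrays and 0.33 within groups, while Aqp4 and Gja1 had 0.76 over all arrays and 0.80 within groups. Gjb6 went with neither Aqp4 nor Gja1, with r of -0.17 and -0.14. The named genes with patterns most like that of Kcnj10 over the 24 arrays were Sfxn5 (r = 0.89), Slc6a11 (0.87), Slc1a2 (0.86), Rlbp1 (0.86) and Dao (0.86). Those most like the mean of the 7 standardized genes were Dao (r = 0.93), Slc1a2 (0.92), Sfxn5 (0.91), S1pr1 (0.91) and Camk2g (0.90). All arrays share the array design and one normalization by the authors, and these correlations carry no test.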

How the data were processed

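TPS neurons of 24 rats were measured on Affymetrix Rat Gene 1.0 ST arrays after amplification of the RNA. RMA in GeneSpring GX was used by the authors for normalization, and they deposited linear intensity values, from 17 to 7980, with 0.356% of them at 17. Their log2 was taken here. Raw scans were not used here, so background has no separate measure, and precision is limited by how many arrays there are. Probes were named through GEO's platform annotation, which gave 1 symbol to 15097 of 27342 probes, several to 323 and none to 11922. The 10 genes, the gene lists and the tests were chosen with earlier results of these data known.

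Probes above the lowest 15% by mean log2 (5.05, an intensity of 33.2) were tested, 23240 in all. The fit of 7 group means used limma 3.58.1 (R 4.3.3), with 17 residual and 3.64 prior degrees of freedom from its moderated variance, and p-values were adjusted by Benjamini-Hochberg over all probes in each of 11 comparisons. The arrays come from separate animals. Most named genes that are no members followed a written rule. It took the homeostasis genes past the test at 3 days with the largest differences and the known partners of members. It also took the reactive genes with the largest differences, with Gfap and Vim, and the genes most like Kcnj10 or the mean of the members. Last, it took the abundant markers of other cells, of which those of neurons and microglia are named. The Car7, Car4, Gjb2, S100, Hes5, Cldn11, Cxcl10 and control-group values did not follow it and were named after they were seen, as were Cp, Serpina3n and Itgam. Other settings changed the filter, moderation, weights, scaling, probes averaged, samples fitted, controls, test or block, or left out each array. The fit was tested on simulated data. An item of the lists is not reported here. Promoter windows came from RefSeq (GRCr8), and their search and the plots were made in Python 3.11.15 with pandas 2.3.3, numpy 2.4.6 and matplotlib 3.10.9.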

Additional observations from a re-analysis of the deposited data

Results flagged for a closer look

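Over the 7 measured genes, 35 groups of 4 arrays were examined for an array far from the others, 3 were found, and chance alone gives about 1 in 20 groups, or 1.75. Aqp4 on 4-day control 3 stood at 9.28 where the other controls were at 10.52 to 10.78. This array was also the lowest of its group in 5 further genes. Aqp4 on 3-day transected array 3 stood at 9.59, with the other 3-day arrays at 10.10 to 10.19. Kcnj10 on 1-week transected array 4 stood at 9.85, with the rest of its group at 9.43 to 9.49. Without 1-week array 4 the Kcnj10 difference between 3 days and 1 week was -0.48 (adjusted p = 0.122 in limma).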

How the results depend on the processing

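Each result was recomputed under up to 14 other settings, since some apply to certain comparisons only, and without each of the 24 arrays. At 3 days Kcnj10 passed in 12 of the 14 settings (-0.91 to -0.83), Car14 in 12 (-1.09 to -1.03) and Gjb6 in 7 (-0.54 to -0.23). The count of measured genes called at 3 days fell to 0 with only the groups compared and with the methods' t-test. How many of all probes each other setting called is not given here, so a changed count cannot be read as particular to these genes. Between 3 days and 1 week the count was 1 with no moderation, only the groups compared, all 12 controls pooled or the replicate block, 0 with the methods' t-test and 3 with 4-day controls 1 and 2 only. The count for the average of the 4 times rose to 1 with array quality weights, quantile normalization again, cyclic loess, all 12 controls pooled, or 4-day controls 1 and 2 only. For the effect at 3 days minus that at 2 weeks it rose to 1 in the same 5 settings, and minus that at 1 month to 1 with array weights and 3 with all controls pooled. For the 2-week against the 4-day controls it was 1 with array weights and 2 with 4-day controls 1 and 2, and for the 1-month against the 2-week controls 0 with quantile normalization again and with cyclic loess. Without 1 array the counts ran from 2 to 3 at 3 days, where 419 to 1056 of all probes were called. They ran from 1 to 3 between 3 days and 1 week (318 to 816 probes) and from 0 to 1 for the average (25 to 169 probes). For the effect at 3 days minus that at 2 weeks they were 0 to 1 (0 to 85 probes), and minus that at 1 month 0 to 1 (0 to 125 probes). The 2-week against the 4-day controls had 0 to 3 (0 to 1288 probes), and the 1-month against the 2-week controls 0 to 4 (614 to 3560 probes). In every such fit the counts were 0 at 1 week (0 to 1 probes), 2 weeks (0 to 3 probes) and 1 month (0 to 12 probes). They were also 0 for the 1-month against the 4-day controls (0 to 566 probes). The causes were not tested. In fits chosen after seeing the data, 4-day control 3 or 4 was left out. These fits called 2.94% and 2.04% of all probes at 3 days, beside 2.89% with all arrays. The neuronal genes called at 3 days went from 3 to 1 and 2, and the oligodendrocyte genes from 1 to 2 and 1. The differences ranged from -0.09 to 0.31 for Slc1a3, -0.13 to 0.38 for Kcnj16 and -0.28 to 0.12 for Mlc1.

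Signs turned only for differences that were not called. With all 12 controls pooled, Gja1 was at 0.09 at 3 days and -0.15 at 2 weeks, Aldoc at 0.00 at 1 week, Kcnj10, Gjb6, Car14 and Aldoc at 0.08, 0.02, 0.05 and 0.08 at 1 month, and Gja1 and Aldoc at 0.24 and 0.11 for 3 days minus 2 weeks. With array weights, Gja1 was at -0.02 at 1 week and Aldoc at 0.00 at 2 weeks. With 4-day controls 1 and 2 only, Aqp4 and Gja1 were at -0.01 and -0.04 at 1 week and Gjb6 at 0.08 for 3 days minus 2 weeks. For the 1-month against the 4-day controls, Gja1 was at -0.08 with array weights, -0.03 with quantile normalization again and with cyclic loess, and -0.12 with 4-day controls 1 and 2, S100b at -0.01 and -0.04 with those normalizations, and Aqp4 at 0.01 with median centring. Gjb6 was at -0.01 for the 1-month against the 2-week controls with cyclic loess. Fits without 1 array turned further signs, over these ranges. The range was -0.34 to 0.03 for Gja1 at 3 days, at 1 week -0.08 to 0.42 for Aqp4, -0.11 to 0.26 for Gja1, -0.12 to 0.02 for Aldoc and -0.03 to 0.11 for S100b, at 2 weeks -0.11 to 0.09 for Kcnj10, -0.06 to 0.05 for Car14 and -0.08 to 0.06 for Aldoc, and at 1 month -0.03 to 0.12 for Gja1 and -0.12 to 0.00 for S100b. For the average it was -0.03 to 0.22 for Aqp4, -0.03 to 0.16 for Gja1 and -0.06 to 0.01 for S100b, for Gjb6 -0.07 to 0.00 between 3 days and 1 week and -0.34 to 0.06 for 3 days minus 2 weeks. For the 2-week against the 4-day controls it was -0.04 to 0.18 for Gjb6 and -0.31 to 0.02 for Car14, and for the 1-month against the 4-day controls -0.39 to 0.11 for Aqp4, -0.18 to 0.18 for Gja1, 0.00 to 0.14 for Aldoc and -0.04 to 0.10 for S100b.

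The sample labels do not say whether equal replicate numbers pair animals. In their deviations from the group means, the 55 pairs of arrays of equal number correlated at 0.0215 on average, and the 189 unequal pairs at -0.0063. These averages cannot settle whether the numbers pair animals. With the replicate number as a block, Kcnj10 (adjusted p = 0.00230) and Car14 (adjusted p = 0.000387) passed at 3 days and Gjb6 did not (adjusted p = 0.0635), 2 genes in all, and the count between 3 days and 1 week was 1. Under the block Car14 and Aldoc were at 0.04 and 0.01 at 2 weeks and Gja1 at -0.07 at 1 month.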
